A study of Mus musculus with 30 samples.

Results

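The immediate early genes of neurons were followed in mouse amygdala and blood, 2 h after auditory fear conditioning. The set has 10 genes, Fos, Fosb, Fosl2, Junb, Egr1, Egr2, Egr3, Arc, Npas4 and Homer1, and each was taken from the expression table by its symbol. All 10 have an entry of their own among the 23303 gene entries, and none is among the 272 entries that join overlapping genes. No gene was chosen by a threshold on its values.

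The mice were male C57BL/6J wild-type animals aged 2 to 3 months. Home cage mice (HC) were handled but not conditioned, conditioned mice (FC) were killed 2 h after pairings of a tone with a foot shock, and mice of the third group (Immo+FC) were also immobilized for 2 h a week before the same conditioning. Each library is a pool of 2 mice of a group, and amygdala gave 6 libraries from HC, 6 from FC and 4 from Immo+FC, and blood gave 4, 5 and 5 from these groups, so that 30 libraries were read. The amygdala punches were centred on the basolateral nucleus and may hold neighbouring subregions, trunk blood was depleted of globin transcripts, and there was no group with immobilization alone.

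Immediate early genes are switched on within minutes of strong synaptic input, before any new protein is made, and their transcripts are mostly short-lived. Calcium and kinase signals reach transcription factors already on the DNA, such as CREB and SRF, which start this first wave. Several members, among them the FOS, JUN and EGR proteins and NPAS4, are transcription factors that act on a later wave of genes, while Arc and Homer1 act at the synapse. In the amygdala such genes are widely used as markers of cells that were active during fear learning.

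The promoters that carry this first wave are shown for 4 members that hold a core of the cyclic AMP response element there. RefSeq (GRCm38.p6) lists a start for 7 members that could be used here, and Egr1, Egr3 and Arc are named only. The stretches below are the 250 bases before the start, 5′ to 3′ on the strand of the gene, less any base in an annotated exon of that gene. They lie at chr12:85473640-85473889 (plus strand, Fos), chr7:19310052-19310295 (minus strand, Fosb), chr10:67537619-67537868 (plus strand, the third listed start of Egr2) and chr13:93303507-93303756 (plus strand, Homer1). Capitals mark the core of a cyclic AMP response element (TGACG on either strand), the EGR motif GCGNGGGCG, the CArG box bound by SRF, and TATAAA.
Fos: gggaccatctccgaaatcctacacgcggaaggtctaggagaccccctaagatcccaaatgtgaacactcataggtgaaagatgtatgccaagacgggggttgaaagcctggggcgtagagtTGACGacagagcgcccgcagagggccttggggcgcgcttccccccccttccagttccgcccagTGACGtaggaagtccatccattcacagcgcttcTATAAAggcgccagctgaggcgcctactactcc
Fosb: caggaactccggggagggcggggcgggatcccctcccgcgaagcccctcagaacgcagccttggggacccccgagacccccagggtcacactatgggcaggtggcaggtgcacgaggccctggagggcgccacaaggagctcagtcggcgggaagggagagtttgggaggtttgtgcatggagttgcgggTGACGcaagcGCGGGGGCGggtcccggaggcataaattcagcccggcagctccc
Egr2: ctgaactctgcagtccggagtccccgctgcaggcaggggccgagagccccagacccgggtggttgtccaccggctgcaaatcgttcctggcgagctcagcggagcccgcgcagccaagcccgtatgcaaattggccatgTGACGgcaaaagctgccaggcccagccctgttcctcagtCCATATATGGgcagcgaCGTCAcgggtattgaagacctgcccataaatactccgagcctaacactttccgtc
Homer1: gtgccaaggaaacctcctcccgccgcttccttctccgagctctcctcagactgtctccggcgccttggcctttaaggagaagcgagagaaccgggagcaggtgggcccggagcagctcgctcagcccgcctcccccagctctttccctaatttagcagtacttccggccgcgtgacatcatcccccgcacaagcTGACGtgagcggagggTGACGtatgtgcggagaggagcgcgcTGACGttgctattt

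Homer1 holds 3 TGACG cores in the last 56 bases before its start. Fos holds 2 such cores, beginning 129 and 66 bases before the start, and a TATAAA 33 bases before it. Fosb has 1 core next to an EGR motif, and the Egr2 stretch has 2 cores that flank a CArG box. At the first listed start of each gene, TGACG was found in 5 of 7 members and in 17.9% of 27025 genes, on either strand. With any listed start counted, these were 6 of 7 members, Fosl2 being the one without it, and 19.8% of genes. Members were counted with exon bases kept, unlike in the stretches shown above. For Fosl2 and Npas4, every base counted lies in an annotated exon of the gene. The TGACG cores of Npas4, the lack of one in Fosl2 and the EGR motif of Fosl2 are therefore read from exon sequence. At any listed start, the EGR motif was in 2 members (5.33% of genes), the CArG box in 1 (1.62%) and TATAAA in 1 (14.3%). The full element TGACGTCA, which contains the core, was in 0 of 7 (1.77%), and the AP-1 motif TGANTCA in 0 of 7 (7.82%). These are matches of letters and not measured binding.

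Values are FPKM, which allow for transcript length and depth, so levels of different genes can be set side by side within a tissue. The authors processed the tissues separately, so levels are not compared between them. Amygdala libraries held 23148078 to 31366290 sequences and blood libraries 9081977 to 25892322. All 6 neuron markers examined were measured in amygdala, where their summed level was 1522 to 1884 FPKM. In blood the 7 neutrophil, 6 T cell and 4 B cell markers summed to at least 4389, 318 and 1116 FPKM. Amygdala libraries differed in markers of striatal neurons, whose 7 measured genes summed to 86.8 to 274 FPKM in HC, to 94.0 to 282 FPKM after FC and to 119 to 260 FPKM after Immo+FC. The libraries also fell apart in 317 genes with a transcript over 10000 bases, whose mean log2 deviation, here called the long transcript score, was -0.32 to -0.09 in all 6 FC libraries. It was -0.18 and -0.13 in HC replicates 1 and 2, 0.21 to 0.26 in HC replicates 3 to 6, -0.22 in Immo+FC replicate 1 and 0.21 to 0.24 in the other 3 Immo+FC libraries. The score thus moves with FC against HC and with Immo+FC against FC. Without HC replicates 1 and 2, every HC score lies above every FC score. Fits that leave these libraries out therefore cannot tell group and score apart in FC against HC. The 5 choroid plexus markers summed to 2.57 to 1054 FPKM in HC, 2.93 to 909 FPKM in FC and 113 to 962 FPKM in Immo+FC. In bulk tissue, fewer cells of a type and less RNA per cell cannot be told apart. Groups were compared with limma on log2(FPKM + 0.1) for every gene whose mean in the tissue reached 0.5 FPKM, p-values were adjusted over that whole table (Benjamini-Hochberg), and each ± beside a log2 fold change is its SE. Exact permutation p-values are two-sided, for the libraries of the groups compared and 1 gene at a time, and are not adjusted.

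In HC amygdala, Egr1, a zinc finger transcription factor, had the highest mean of the members, at 39.3 ± 11.1 FPKM (SD, n = 6), above 88.4% of tested genes. Homer1, a scaffold of the postsynaptic density, followed at 25.9 ± 4.44 FPKM, Egr3 at 25.1 ± 3.20 FPKM and Junb at 20.9 ± 6.86 FPKM. Arc, a synaptic protein that governs the removal of AMPA receptors, was at 16.4 ± 10.3 FPKM, and Fos at 6.68 ± 3.86 FPKM. Npas4 was at 5.40 ± 2.00 FPKM, Fosl2 at 5.00 ± 0.741 FPKM, Fosb at 2.97 ± 0.773 FPKM and Egr2 at 1.45 ± 0.683 FPKM. Of neighbours in this order, the ranges did not overlap only between Fosl2 and Fosb. Egr1 was above Homer1 and Arc above Fos in 6 of 6 libraries, while Homer1 was above Egr3 in 4 of 6 and Fos above Npas4 in 3 of 6. The Homer1 value joins its long forms and the short activity-induced form, and the Fosb value joins full-length FosB and ΔFosB.

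**Figure D1:**
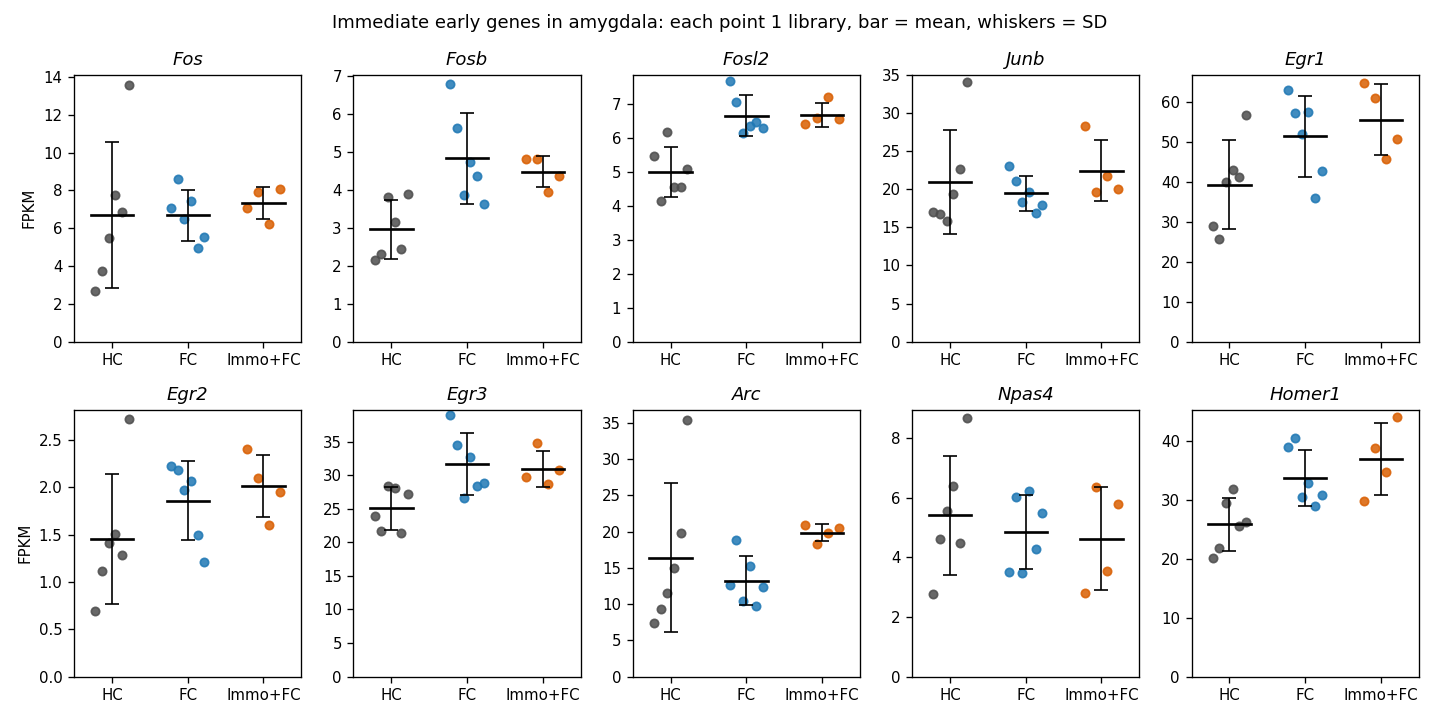
FPKM of the 10 genes in amygdala, with groups on the horizontal axis, FPKM on the vertical axis, 1 point per library, a bar at the mean and whiskers of 1 SD. Every Immo+FC library lies above every HC library for Fosb, Fosl2 and Egr3, 3 of 10 members against 2.57% of tested genes, and HC points spread widely for Fos and Arc.

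Among the FOS family, whose proteins pair with JUN proteins to form AP-1, Fosb and Fosl2 had higher values after conditioning and Fos itself did not differ beyond its spread. Fosb (chr7:19302696-19310051, minus strand) had 2.15, 2.33, 3.82, 3.16, 2.45 and 3.90 FPKM in HC. In FC its values were 6.81, 5.63, 3.86, 4.75, 4.37 and 3.63 FPKM, and in Immo+FC 4.81, 4.81, 3.96 and 4.36 FPKM. The lowest 2 FC libraries reached into the HC range, and all 4 Immo+FC libraries lay above it. On the log2 scale Fosb differed by 0.69 ± 0.16 in FC against HC (limma adjusted p = 0.106, exact permutation p = 0.0108) and by 0.61 ± 0.18 in Immo+FC against HC (limma adjusted p = 0.161, exact permutation p = 0.0238). In FC against HC the limma adjusted p of Fosb was 0.149 with the long transcript score and 0.0852 with the striatal marker score as a covariate.

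Fosl2, which encodes the Fos-related antigen FRA-2 (chr5:32135801-32157842, plus strand), had 5.47, 4.15, 6.18, 4.55, 4.56 and 5.10 FPKM in HC. Its FC values were 7.69, 7.05, 6.14, 6.35, 6.47 and 6.30 FPKM, and its Immo+FC values 6.41, 6.60, 7.20 and 6.55 FPKM. Only HC replicate 3 reached the FC range, and no HC library reached the Immo+FC range. Fosl2 differed by 0.42 ± 0.08 on the log2 scale in FC against HC (limma adjusted p = 0.0924, exact permutation p = 0.00433) and by 0.42 ± 0.09 in Immo+FC against HC (limma adjusted p = 0.0748, exact permutation p = 0.0143). By its limma p it ranked 17 of 13508 genes in FC against HC and 51 in Immo+FC against HC. The smallest p that the exact test allows is 0.00216 for 6 against 6 libraries and 0.00476 for 6 against 4. In FC against HC Fosl2 passed without HC replicate 3 (adjusted p = 0.0184), without HC replicate 1 (adjusted p = 0.0304) and without Immo+FC replicate 1 (adjusted p = 0.0451), and over all left-out libraries its adjusted p ran up to 0.254. In Immo+FC against HC it passed without HC replicate 3 (adjusted p = 0.0147).

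Fos (chr12:85473890-85477273, plus strand), the founding member of the family, had 2.69, 3.75, 5.47, 7.75, 6.84 and 13.6 FPKM in HC. It had 7.06, 8.63, 6.47, 7.46, 4.94 and 5.54 FPKM in FC, and 7.08, 7.91, 6.25 and 8.10 FPKM in Immo+FC. HC libraries were thus both the lowest and the highest of the tissue, and the FC and Immo+FC ranges lay inside the HC range. Its log2 fold change in FC against HC was 0.16 ± 0.27 (limma adjusted p = 0.851). It was 0.40 without HC replicate 6, -0.05 without HC replicate 1 and -0.27 without HC replicates 1 and 2. Adjusted for the long transcript score it was 0.62 ± 0.31 (limma adjusted p = 0.394).

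Junb (chr8:84974484-84978718, minus strand), a JUN family partner of FOS proteins, had 17.1, 16.7, 15.8, 19.4, 22.6 and 34.0 FPKM in HC. It had 23.1, 21.1, 18.4, 19.6, 16.9 and 17.9 FPKM in FC and 28.3, 19.7, 21.8 and 19.97 FPKM in Immo+FC. The groups overlapped, HC replicate 6 was the highest, and the log2 fold changes were -0.06 ± 0.15 in FC against HC (limma adjusted p = 0.910) and 0.20 ± 0.17 in Immo+FC against FC (adjusted p = 0.731).

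The EGR genes, zinc finger transcription factors that share a GC-rich motif, all had higher means in FC and in Immo+FC than in HC. Egr1 (chr18:34859823-34864984, plus strand) had 29.0, 25.7, 40.0, 43.0, 41.3 and 56.8 FPKM in HC. Its FC values were 63.0, 57.1, 51.9, 57.6, 36.0 and 42.6 FPKM, and its Immo+FC values 64.8, 61.1, 45.6 and 50.8 FPKM. HC replicates 3 to 6 lay inside the FC range, and only replicate 6 of HC inside that of Immo+FC. Egr1 differed by 0.41 ± 0.17 on the log2 scale in FC against HC (limma adjusted p = 0.313, exact permutation p = 0.0909) and by 0.53 ± 0.19 in Immo+FC against HC (limma adjusted p = 0.248, exact permutation p = 0.0571).

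Egr3 (chr14:70077203-70082614, plus strand) had 23.9, 21.7, 28.3, 28.1, 21.4 and 27.2 FPKM in HC. It had 38.9, 34.5, 26.6, 32.7, 28.4 and 28.9 FPKM in FC and 29.8, 34.8, 28.7 and 30.7 FPKM in Immo+FC. A single FC library, replicate 3, lay inside the HC range, and the 4 Immo+FC libraries lay above it. For Egr3 the log2 fold change was 0.33 ± 0.09 in FC against HC (limma adjusted p = 0.131, exact permutation p = 0.0195) and 0.31 ± 0.11 in Immo+FC against HC (limma adjusted p = 0.226, exact permutation p = 0.0238).

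Egr2 (chr10:67535475-67542188, plus strand), the lowest member of the tissue, had 0.689, 1.12, 1.41, 1.504, 1.28 and 2.72 FPKM in HC. It had 2.23, 2.18, 1.97, 2.07, 1.497 and 1.21 FPKM in FC and 2.40, 2.09, 1.61 and 1.95 FPKM in Immo+FC. HC replicate 6 was above every conditioned library. Egr2 differed by 0.41 ± 0.23 on the log2 scale in FC against HC (limma adjusted p = 0.459) and by 0.54 ± 0.26 in Immo+FC against HC (limma adjusted p = 0.384).

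The differences of Egr1 and Egr2 from HC were smaller without HC replicates 1 and 2, the HC libraries with low long transcript scores. In FC against HC the log2 fold change of Egr1 was then 0.17 ± 0.15 and that of Egr2 0.13 ± 0.20, and in Immo+FC against HC they were 0.30 ± 0.16 and 0.26 ± 0.22. For Egr3 it was then 0.27 ± 0.10 in FC against HC and 0.24 ± 0.11 in Immo+FC against HC.

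Of the members that act at the synapse, Homer1 had higher values after conditioning. Homer1 (chr13:93299635-93405129, plus strand) had 20.1, 21.9, 29.5, 31.8, 25.6 and 26.4 FPKM in HC. It had 39.1, 40.5, 30.5, 32.9, 29.1 and 30.9 FPKM in FC and 29.9, 39.0, 34.9 and 44.2 FPKM in Immo+FC. HC replicates 3 and 4 reached the FC range. Homer1 differed by 0.39 ± 0.12 on the log2 scale in FC against HC (limma adjusted p = 0.147, exact permutation p = 0.0152) and by 0.52 ± 0.13 in Immo+FC against HC (limma adjusted p = 0.106, exact permutation p = 0.0143). In FC against HC it was 0.25 ± 0.11 without HC replicates 1 and 2 and 0.63 ± 0.12 when adjusted for the long transcript score (limma adjusted p = 0.143). In FC replicates 1 and 2, which had the highest FC values of Homer1, Fosb and Egr3, the choroid plexus markers summed to 3.40 and 2.93 FPKM, against 86.0 to 909 FPKM in the other 4 FC libraries. The part of choroid plexus transcripts in these values was not tested.

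Arc (chr15:74669083-74672570, minus strand) was the member with the largest log2 difference between Immo+FC and FC, and that difference did not pass the test. Its values were 7.38, 9.29, 11.5, 14.9, 19.8 and 35.4 FPKM in HC, 12.6, 18.9, 10.4, 15.3, 9.69 and 12.4 FPKM in FC, and 20.8, 18.3, 19.8 and 20.5 FPKM in Immo+FC. The 4 Immo+FC libraries were close together and above all FC libraries but replicate 2. Arc in Immo+FC differed from FC by 0.62 ± 0.31 on the log2 scale (limma p = 0.0643 before and 0.512 after adjustment, exact permutation p = 0.0238). With the striatal marker score as a covariate the log2 fold change was 0.37, and with the long transcript score 0.19. Against HC, Arc differed by -0.14 ± 0.28 in FC and 0.48 ± 0.31 in Immo+FC on the log2 scale. The value for FC turned to 0.28 ± 0.32 when adjusted for the long transcript score, and without HC replicates 1 and 2 the values were -0.53 ± 0.24 and 0.09 ± 0.26.

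Npas4 (chr19:4984355-4990316, minus strand), a transcription factor that in neurons depends on calcium entry, had 2.77, 4.596, 5.55, 6.37, 4.47 and 8.66 FPKM in HC. It had 3.51, 6.03, 3.47, 6.22, 4.29 and 5.498 FPKM in FC and 2.81, 6.37, 3.54 and 5.79 FPKM in Immo+FC. The groups overlapped and HC replicate 6 was again the highest. Npas4 differed by -0.12 ± 0.25 on the log2 scale in FC against HC (limma adjusted p = 0.888) and by -0.22 ± 0.28 in Immo+FC against HC (adjusted p = 0.790).

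Over the set, 0 of 10 members passed the adjusted threshold of 0.05 in FC against HC, where limma called 2 of 13508 genes (0.0148%). The paper tested with Cuffdiff and lists Egr3 as higher in FC amygdala at a q under 0.05, so the call for Egr3 differs between the tests. That list holds only genes that also had a p under 0.05 in blood. At an unadjusted p under 0.05 there were 5 of 10 members, Fosb, Fosl2, Egr1, Egr3 and Homer1, against 1765 genes (13.1%), and all 5 were higher in FC. For the remaining members the exact permutation p was 0.171 for Egr2, 0.658 for Fos, 0.677 for Npas4, 0.719 for Arc and 0.812 for Junb. The exact test was not run over all genes. For no member did the groups fail to overlap, as they did for 188 genes (1.39%). The median log2 fold change of the members was 0.36 against 0.01 over all tested genes. Without HC replicates 1 and 2 it was 0.15 against 0.02, and 6 rather than 7 members were above 0. Adjusted for the long transcript score, the median of the members was 0.49.

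In Immo+FC against HC, 0 of 10 passed, where limma called 27 genes (0.2%). The 5 members named above had an unadjusted p under 0.05, all with higher values in Immo+FC, against 1765 genes (13.1%). For the remaining members the exact permutation p was 0.129 for Egr2, 0.281 for Arc, 0.462 for Fos, 0.543 for Npas4 and 0.595 for Junb. Fosb, Fosl2 and Egr3 did not overlap between the groups, 3 of 10, against 347 genes (2.57%). The median log2 fold change was 0.45 against -0.01 over all genes, and without HC replicates 1 and 2 it was 0.25 against -0.02. This comparison shares its HC libraries with the one before, so the like order of members in both is not a second observation.

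In Immo+FC against FC, which asks what earlier immobilization adds, 0 of 10 passed, where limma called 3 genes (0.0222%). No member had an unadjusted p under 0.05, against 1409 genes (10.4%), and none failed to overlap, against 308 genes (2.28%). The log2 fold changes ran from -0.10 for Npas4 to 0.62 for Arc, with a median of 0.13 against -0.02 over all genes. The exact permutation p was 0.0238 for Arc and ran from 0.148 for Junb to 0.919 for Fosl2 in the remaining members. Fosl2 differed by 0.01 ± 0.09 and Egr3 by -0.02 ± 0.11 on the log2 scale between these groups.

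**Figure D2:**
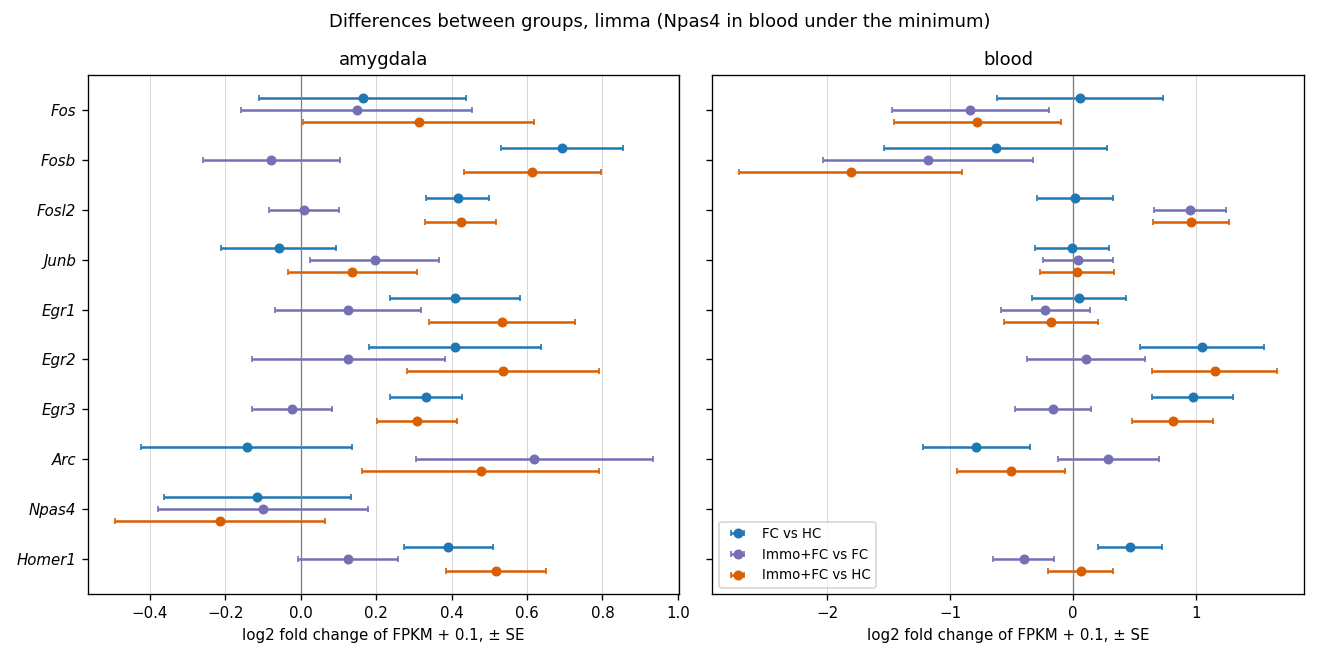
Log2 fold change on the log2(FPKM + 0.1) scale (horizontal axis) of each gene (vertical axis) in the 3 comparisons of amygdala and of blood, with whiskers of 1 SE from limma. In amygdala Fosb, Fosl2, Egr1, Egr3 and Homer1 lie to the right of 0 in both comparisons with HC, and in blood the whiskers are longer.

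HC amygdala held the widest spread. The coefficient of variation was higher in HC than in both other groups for 8 of 10 members, against 27.9% of tested genes, and for Fos it was 57.8% in HC against 19.99% in FC and 11.6% in Immo+FC. For Arc it was 62.8% in HC against 25.8% in FC and 5.69% in Immo+FC. HC replicate 6 held the highest HC value for 7 of 10 members, against 16% of genes, and the lowest HC value was in replicate 1 or 2 for 8 of 10, against 40.4% of genes. Without HC replicate 6 the spread was widest in HC for 7 members (28.1% of genes), and without HC replicates 1 and 2 for 5 members (20.4% of genes). Along the 6 HC replicates in number order, the summed striatal markers were 86.8, 115, 114, 165, 252 and 274 FPKM, so the library with the most Fos and Arc was also the one with the most striatal transcripts of HC. The summed choroid plexus markers ran the other way, at 577, 1054, 303, 4.17, 3.13 and 2.57 FPKM along the same libraries. In FC they were highest, at 909 FPKM, in replicate 5, which had the lowest FC values of Fos, Arc and Egr1. In Immo+FC they were highest, at 962 FPKM, in replicate 1. That library had the highest Immo+FC values of Fosb, Junb, Egr1, Egr2 and Arc and the lowest of Fosl2, Npas4 and Homer1. The striatal markers were highest in FC, at 282 FPKM, in replicate 4, whereas Fos and Arc were highest in FC replicate 2. In Immo+FC the striatal markers were lowest, at 119 FPKM, in replicate 4, which had the highest Immo+FC value of Fos. The part of striatal and choroid plexus transcripts in the spread was not tested.

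Members also varied together between pools of the same group. After group means were removed on the log2 scale, 43 of 45 pairs of members had a positive Pearson r over the 16 amygdala libraries, with a median of 0.54. Over all 91226278 pairs of tested genes, 51.0% had a positive r, and the median was 0.01. By permutation within groups, 19 pairs of members passed an adjusted p of 0.05, all positive, and by Spearman's rho 16 pairs passed. The lowest r among the 19 was 0.62, a value reached by 20 of 45 pairs of members and by 3.74% of all pairs of genes. The strongest pair was Fos and Arc, with r = 0.93 (permutation p = 0.00015, adjusted p = 0.00382) and rho = 0.85 (permutation p = 0.002, adjusted p = 0.0112). Without the 2 libraries farthest from the median of Fos, r was 0.80.

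Fos and Egr2 had r = 0.90, rho = 0.71 and 0.68 without 2 libraries (permutation p = 0.00017 for r and 0.00329 for rho, adjusted p = 0.00382 and 0.0139). Fosb and Egr3 had r = 0.86, rho = 0.83 and 0.82 without 2 libraries (permutation p = 0.00051 and 0.00184, adjusted p = 0.00382 and 0.0112). Egr1 and Egr2 had r = 0.85, rho = 0.92 and 0.95 without 2 libraries (permutation p = 0.0004 and 4e-05, adjusted p = 0.00382 and 0.0018). Fosl2, which differed most clearly by p between FC and HC, had no pair past the threshold, and its r with Fos was 0.00 and with Arc -0.01. Its highest r was 0.59 with Egr3 (permutation adjusted p = 0.0667), followed by 0.54 with Fosb (permutation adjusted p = 0.132). Within FC alone, Fosl2 had r = 0.94 with Fosb, 0.91 with Egr3, 0.85 with Junb, 0.85 with Homer1 and -0.20 with Npas4. Within HC alone these were 0.46, 0.58, -0.13, 0.13 and -0.06. Of the 19 pairs, Arc and Npas4 had the weakest r without 2 libraries, 0.25.

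With the striatal marker score removed from the deviations 16 pairs passed, with the long transcript score removed 16 passed, and both settings were added after the data were seen. Without HC replicates 1 and 2, 8 pairs passed, all of them among the 19, and Fos and Arc then had r = 0.87. The 8 pairs were Fos with Egr1, Egr2 and Arc, Junb with Egr1 and Arc, Fosb with Egr3, Egr1 with Egr2 and Egr3 with Homer1.

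**Figure D3:**
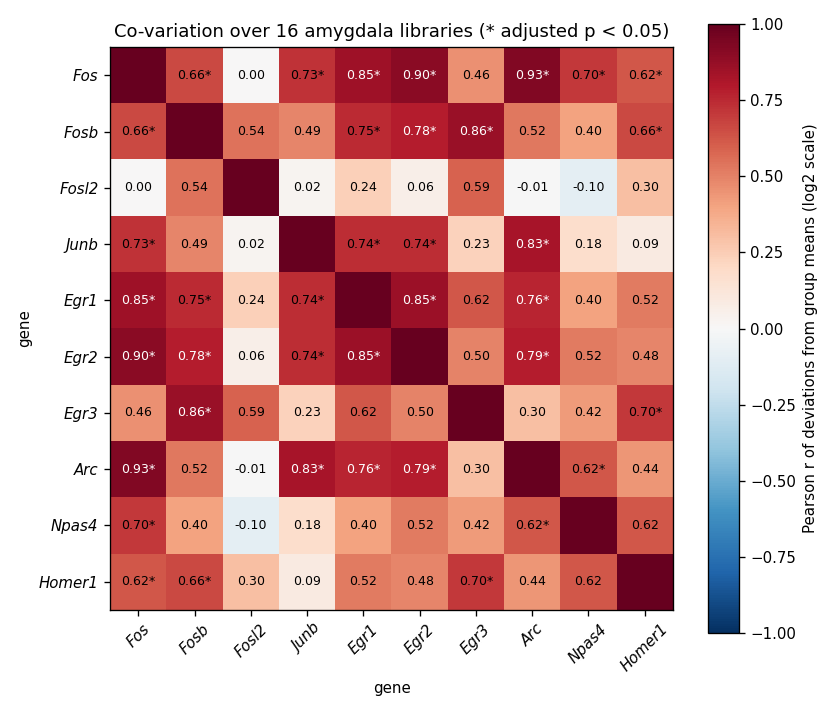
Pearson r of each pair of genes (both axes) over 16 amygdala libraries after removal of group means on the log2 scale, with colour from -1 to 1 and an asterisk at an adjusted permutation p under 0.05. Fos, Egr1, Egr2 and Arc form the darkest block, and the row of Fosl2 has no asterisk.

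**Figure D4:**
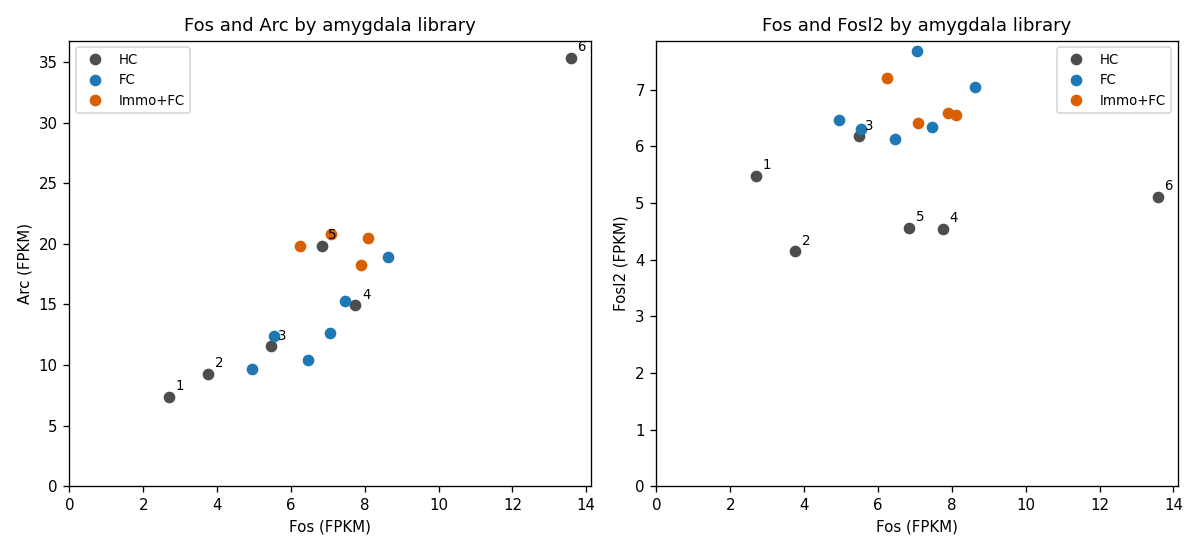
Fos (horizontal axis, FPKM) against Arc (left, FPKM) and Fosl2 (right, FPKM) in each amygdala library, coloured by group, with the replicate number beside the HC points. Arc follows Fos along the HC libraries from 7.38 to 35.4 FPKM. The HC points of Fosl2 lie at 4.15 to 6.18 FPKM across the range of Fos, and that of replicate 3 reaches the FC range.

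Among the 12354 genes that averaged 1 FPKM or more, those most like a member were ranked by the same r over 16 libraries, as a description. Arc was the gene most like Fos, and Egr2 ranked 3, Egr1 10, Junb 171, Npas4 235, Fosb 392, Homer1 548, Egr3 1644 and Fosl2 6717. The nearest member was at rank 21 for Egr1 (Egr2), 1 for Arc (Fos) and 250 for Homer1 (Egr3), so many genes outside the set followed Homer1 more closely than any member. Outside the set, Fos was followed most closely by Arl4d (r = 0.92), Plekha8 (0.90), Nfya (0.87), Clstn2 (0.87) and Prkcz (0.86). Egr1 was closest to Tyro3 (0.92), Ier5 (0.91), Arpp19 (0.91), Il34 (0.91) and B4galnt1 (0.88). For Arc these were Arl4d (0.91), Dusp1 (0.89), Ier2 (0.86), Rgs8 (0.85) and Phactr1 (0.84), of which Dusp1 and Ier2 are rapid response genes. For Homer1 they were Madd (0.90), Usp31 (0.88), Mapt (0.88), Pip4k2b (0.87) and Rock2 (0.87).

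Other genes of the activity response were read in 3 lists. Of 22 tested other rapid response genes, 0 passed in amygdala FC against HC, and at an unadjusted p under 0.05 the list had 3 genes higher and 3 lower, 6 of 22 against 13.1% of all tested genes. Its median log2 fold change was 0.06. Egr4, of the EGR family, was at 0.25 ± 0.18, Ier5 at 0.23 ± 0.14, Ier2 at -0.21 ± 0.17 and Nr4a1, a nuclear receptor, at -0.18 ± 0.17 on the log2 scale. Later in the list, Btg2 was at -0.53 ± 0.17 (limma adjusted p = 0.172) and Dusp1 at -0.47 ± 0.16 (adjusted p = 0.192), both lower in FC. Rgs2 was at 0.22 ± 0.05 (limma adjusted p = 0.110). Of 14 late response genes, which the first wave of factors can act on, 0 passed, and at an unadjusted p under 0.05 it had 6 higher and 0 lower, 6 of 14 against the same 13.1%, around a median of 0.20. Bdnf, a neurotrophin, was at 0.28 ± 0.11 (limma adjusted p = 0.272), Nptx2, a secreted pentraxin of synapses, at 0.33 ± 0.13 (adjusted p = 0.283), Scg2 at 0.35 ± 0.13 (adjusted p = 0.226) and Pcsk1, a prohormone convertase, at 0.20 ± 0.15 (adjusted p = 0.627). Later in this list, Inhba was at 0.71 ± 0.26 (limma adjusted p = 0.233) and Crem at 0.31 ± 0.08 (adjusted p = 0.113).

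Of 17 tested partners and regulators, 0 passed, and at an unadjusted p under 0.05 there were 0 higher and 2 lower, 2 of 17 against 13.1%, around a median of -0.01. Jun was at 0.16 ± 0.12 and Jund at -0.09 ± 0.09 on the log2 scale, while Fosl1 and Atf3 were under the minimum in amygdala. In Immo+FC against HC, where 13.1% of all genes had such a p, the unadjusted counts were 3 higher and 1 lower of the rapid, 4 and 0 of the late, and 0 and 2 of the partner genes, and in Immo+FC against FC (10.4% of all genes) they were 1 and 0, 0 and 0, and 1 and 0, with 0 past the adjusted threshold in each.

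In blood the order of levels was another one, with Junb and Fos at the top and the genes typical of neurons near the bottom. HC blood had 189 ± 82.1 FPKM of Junb (SD, n = 4), 76.4 ± 45.3 FPKM of Fos, 5.47 ± 1.22 FPKM of Fosl2, 3.47 ± 1.06 FPKM of Egr1 and 2.47 ± 1.69 FPKM of Fosb. Egr3 was at 1.43 ± 0.792 FPKM, Homer1 at 0.960 ± 0.128 FPKM, Arc at 0.740 ± 0.192 FPKM, Egr2 at 0.264 ± 0.189 FPKM and Npas4 at 0.0739 ± 0.0559 FPKM. Of neighbours in this order, the ranges of Fos and Fosl2 and of Arc and Egr2 did not overlap, and the others did.

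**Figure D5:**
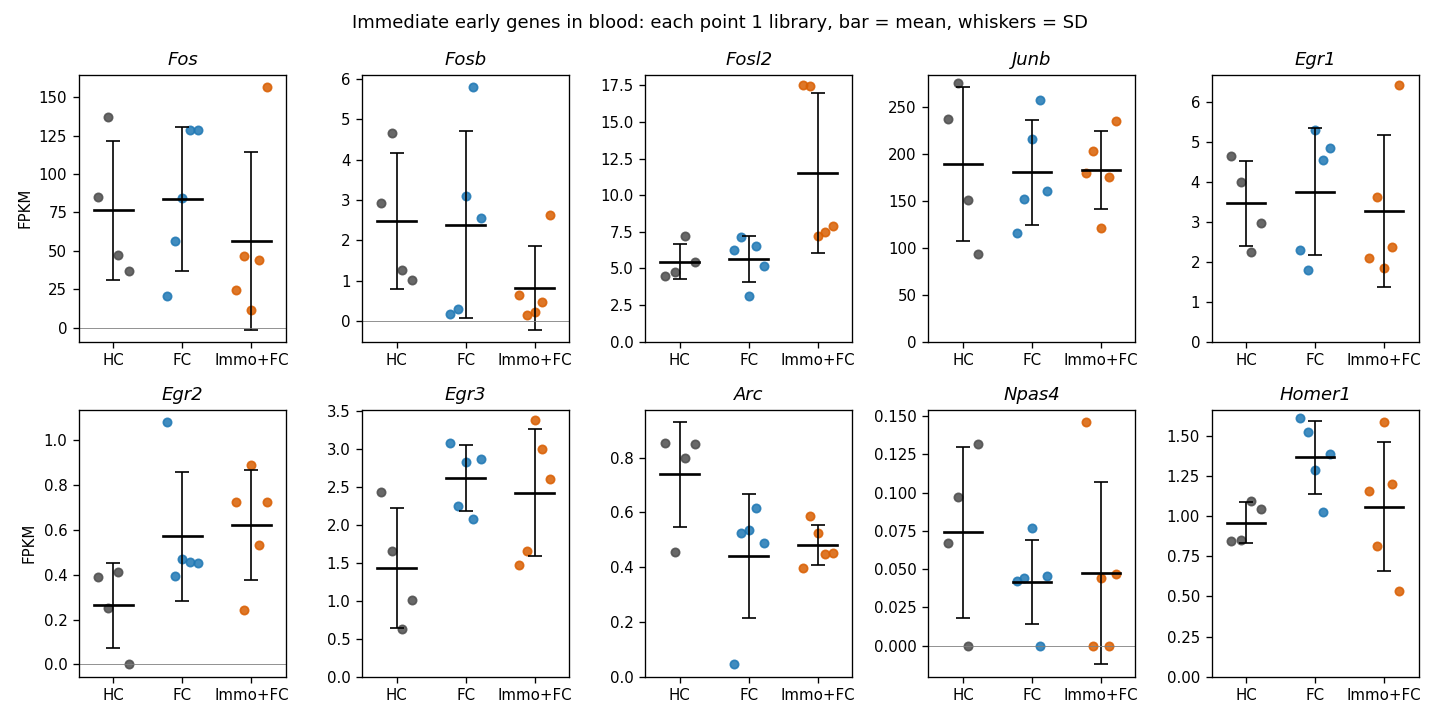
FPKM of the 10 genes in blood, with groups on the horizontal axis, FPKM on the vertical axis, 1 point per library, a bar at the mean and whiskers of 1 SD. Immo+FC replicates 1 and 2 stand high for Fosl2, and Fos and Fosb spread widely in every group.

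In blood only Fosl2 among the members did not overlap between Immo+FC and FC, against 1.58% of tested genes, and its difference did not pass the test. Fosl2 had 4.47, 4.79, 7.19 and 5.42 FPKM in HC, 6.27, 7.12, 3.10, 6.55 and 5.15 FPKM in FC, and 17.5, 17.4, 7.19, 7.49 and 7.92 FPKM in Immo+FC. All 5 Immo+FC libraries were above all 5 FC libraries, and the highest HC library overlapped the lowest Immo+FC library. In Immo+FC blood the log2 fold change of Fosl2 was 0.95 ± 0.29 against FC (limma adjusted p = 0.523, exact permutation p = 0.00794, the smallest that 5 against 5 libraries allow) and 0.96 ± 0.31 against HC (limma adjusted p = 0.149, exact permutation p = 0.0397). Immo+FC replicates 1 and 2, the highest for Fosl2, also had the most neutrophil transcripts, with 33858 and 43648 FPKM summed over 7 markers against 12011 to 18039 FPKM in the other 3. HC replicate 3 had 28907 FPKM of these markers with 7.19 FPKM of Fosl2. With scores of neutrophil and lymphocyte markers as covariates, the log2 fold change of Immo+FC against FC was 0.38 ± 0.23 (limma adjusted p = 0.969). By the blood counts of the paper, Immo+FC mice had a larger share of neutrophils and a smaller share of lymphocytes than FC and HC mice. The part of these cell shares in the Fosl2 values was not tested.

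Fos had 85.1, 137, 47.0 and 36.6 FPKM in HC blood, 20.6, 56.6, 84.4, 129 and 129 FPKM in FC, and 24.5, 46.5, 11.4, 43.8 and 157 FPKM in Immo+FC. Fosb had 2.94, 4.66, 1.28 and 1.02 FPKM in HC, 0.167, 0.304, 3.10, 5.81 and 2.57 FPKM in FC, and 0.644, 0.140, 0.229, 0.467 and 2.64 FPKM in Immo+FC. Both genes ranged widely within every group and the groups overlapped. In HC replicate 2 and in Immo+FC replicate 5 both were at the highest level of their group. For Fosb the log2 fold change was -1.81 ± 0.91 in Immo+FC against HC (limma adjusted p = 0.363) and -1.18 ± 0.85 in Immo+FC against FC (limma adjusted p = 0.667). For Fos it was 0.06 ± 0.68 in FC against HC and -0.78 ± 0.68 in Immo+FC against HC.

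Egr3 and Egr2 had higher means in both conditioned groups than in HC blood, and neither difference passed the test. Egr3 had 2.44, 1.65, 0.631 and 1.005 FPKM in HC, 3.08, 2.25, 2.83, 2.08 and 2.88 FPKM in FC, and 1.47, 1.66, 3.39, 3.01 and 2.61 FPKM in Immo+FC. The FC range overlapped HC through HC replicate 1 alone. Egr3 differed by 0.97 ± 0.33 on the log2 scale in FC against HC (limma adjusted p = 0.286, exact permutation p = 0.0238) and by 0.81 ± 0.33 in Immo+FC against HC (limma adjusted p = 0.250, exact permutation p = 0.111). Without HC replicates 3 and 4, of which replicate 4 was the shallowest library, it was 0.35 in FC against HC. This setting was added after the data were seen.

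Egr2 was low in blood, with 0.388, 0.253 and 0.414 FPKM in HC and the remaining HC library listed at 0, 1.08, 0.394, 0.469, 0.456 and 0.453 FPKM in FC, and 0.723, 0.242, 0.889, 0.534 and 0.725 FPKM in Immo+FC. Its log2 fold change was 1.05 ± 0.51 in FC against HC (limma adjusted p = 0.504) and 1.15 ± 0.51 in Immo+FC against HC (limma adjusted p = 0.297), both computed with the library listed at 0. Egr1 had 2.26 to 4.65 FPKM in HC, 1.80 to 5.30 FPKM in FC and 1.85 to 6.43 FPKM in Immo+FC, and Junb 93.9 to 275, 116 to 257 and 121 to 235 FPKM. Neither gene separated the groups, with log2 fold changes of 0.05 ± 0.38 for Egr1 and -0.01 ± 0.30 for Junb in FC against HC.

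Arc and Homer1, synaptic genes in brain, were near 1 FPKM or below in blood. Arc had 0.854, 0.454, 0.8004 and 0.850 FPKM in HC, 0.0442, 0.523, 0.537, 0.617 and 0.487 FPKM in FC, and 0.397, 0.585, 0.525, 0.447 and 0.451 FPKM in Immo+FC. In HC replicates 1, 3 and 4 it was above every conditioned library. These 3 libraries also had the most neuron transcripts, with the 6 neuron markers summing to 22.8, 28.5 and 32.3 FPKM against 8.09 FPKM in HC replicate 2 and 0.161 to 9.60 FPKM in the other 10 libraries. Arc differed by -0.79 ± 0.44 on the log2 scale in FC against HC (limma adjusted p = 0.566), and by -0.83 ± 0.63 with the neuron marker score as a covariate. Homer1 had 0.848, 0.854, 1.09 and 1.05 FPKM in HC, 1.61, 1.52, 1.29, 1.03 and 1.39 FPKM in FC, and 1.16, 0.818, 1.59, 1.20 and 0.532 FPKM in Immo+FC, with a log2 fold change of 0.46 ± 0.26 in FC against HC (limma adjusted p = 0.579). Npas4 was at most 0.146 FPKM and listed at 0 in 4 of 14 libraries, so it was under the minimum of the fit, and exact permutation tests gave p = 0.389 for FC against HC, 0.976 for Immo+FC against FC and 0.492 for Immo+FC against HC, where 0.00794 is the smallest p allowed.

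Of the 9 members tested in blood, 0 passed in FC against HC, where limma called 4 of 11656 genes (0.0343%), 1 had an unadjusted p under 0.05 (1190 genes, 10.2%) and 0 did not overlap (452 genes, 3.88%). In Immo+FC against FC, 0 passed, where limma called 0 genes (0%), 1 member, Fosl2, had an unadjusted p under 0.05 (1112 genes, 9.54%), and it was also the 1 member that did not overlap (184 genes, 1.58%). In Immo+FC against HC, 0 passed, where limma called 8 genes (0.0686%), 3 members, Fosl2, Egr2 and Egr3, had an unadjusted p under 0.05 with higher values in Immo+FC (1778 genes, 15.3%), and 0 did not overlap (537 genes, 4.61%). The median log2 fold change of the 9 members was 0.05, -0.16 and 0.03 in these comparisons, against -0.01, -0.01 and -0.02 over all tested genes.

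The related lists were read in blood too. Of the tested genes, 19 rapid, 7 late and 17 partner genes, 0 passed in any comparison. At an unadjusted p under 0.05 the rapid genes had 0 higher and 2 lower values in FC against HC (10.2% of all tested genes), 3 and 0 in Immo+FC against FC (9.54%), and 1 and 1 in Immo+FC against HC (15.3%). The late genes had 0 and 3, 0 and 0, and 1 and 1, and the partner genes 0 and 0, 2 and 0, and 3 and 0. Nr4a1 was at -0.60 ± 0.18 in Immo+FC against HC (limma adjusted p = 0.121) and Atf3, a stress-induced AP-1 family factor, at 0.76 ± 0.33 in Immo+FC against FC (adjusted p = 0.523) on the log2 scale. Ier2 differed by 0.01 ± 0.21, Ier5 by -0.03 ± 0.10, Jun by 0.40 ± 0.44 and Jund by -0.02 ± 0.16 in FC against HC. In that comparison Nr4a1 differed by -0.31 ± 0.18 and Atf3 by -0.24 ± 0.35. Genes later in the lists had smaller p-values than most of these. Batf was at 0.72 ± 0.14 (limma adjusted p = 0.0567) and Trib1 at 0.98 ± 0.28 (limma adjusted p = 0.116) in Immo+FC against HC. Klf4 was at -0.71 ± 0.16 in FC against HC (limma adjusted p = 0.121).

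Whether a contrast differed between the tissues was tested over 10285 genes measured in both, with the tissue as an interaction in limma. In FC against HC 0 of 9 members passed, against 236 genes (2.29%), in Immo+FC against FC 0 passed, against 1 gene (0.00972%), and in Immo+FC against HC 0 passed, against 309 genes (3%). The nearest was Fosb in Immo+FC against HC, at a log2 fold change of 0.61 in amygdala and -1.81 in blood, which differed by 2.42 ± 0.79 (limma adjusted p = 0.105). For Fosl2 in Immo+FC against FC, 0.01 in amygdala and 0.95 in blood, the difference was -0.94 ± 0.28 (limma adjusted p = 0.312). Pools read in both tissues come from the same mice, which this fit did not use. Pools 11, 21 and 22 have an amygdala library only, and pool 6 has a blood library only. Replicate numbers therefore differ between the tissues. HC replicates 3 and 4 of blood are pools 23 and 24, which are HC replicates 5 and 6 of amygdala.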

How the data were processed

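RNA from amygdala punches and globin-depleted trunk blood was sequenced from poly-A selected libraries without strand information, so reads of overlapping antisense genes cannot be told apart. Per the methods, the authors used STAR 2.3 for alignment to mm10 and made the deposited FPKM values with Cufflinks 2.1.1 and Cuffdiff 2.1.1, each tissue separately. The mapping table deposited by the authors gives counts of sequences and the percent mapped to a single place, 91.33 to 92.3 in amygdala and 60.06 to 72.59 in blood. The deposited FPKM hold no read counts, so no counting interval is given.

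Samples were grouped by their labels, with 0 columns left over. FPKM were turned into log2(FPKM + 0.1), which understates the change of low genes, and modelled in limma 3.58.1 (R 4.3.3), letting the variance follow the mean. HC, FC and Immo+FC of a tissue entered together with no covariate. Genes averaging under 0.5 FPKM were left out, and a call needed an adjusted p below 0.05. All tests are two-sided. Pools of separate mice are the replicates. Co-variation was tested with 100000 permutations within groups, adjusted over 45 pairs, and the difference between tissues in 1 fit with array weights. Scripts were tested on simulated data. Scores of markers and of long transcripts are means of log2 values over their genes, centred over the libraries of a tissue.

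All members are named, with the 5 genes most like Fos, Egr1, Arc and Homer1. Of each of 3 related lists the first 4 genes in the order of the list are named, whatever their values. In amygdala Btg2, Dusp1, Rgs2, Inhba and Crem are named besides, for their small p-values or large changes. In blood Batf, Trib1 and Klf4 are named besides, for their small p-values. The members and lists were chosen with earlier results of these data known, so their counts are no independent support. Positions are from GENCODE vM21 (GRCm38, the build also called mm10) and promoters from RefSeq. The title numbers of libraries are an order within a group. Alternatives were other pseudocounts, minimum values and scalings, a fit of 2 groups, array weights, a replicate block, marker scores as covariates and left-out libraries.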

Additional observations from a re-analysis of the deposited data

Results flagged for a closer look

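A library far from the others of its group, by Dixon's test of the gap to the nearest value, was found in 6 of 60 groups of values, where chance alone flags about 1 in 20 groups. In amygdala it was Junb in HC replicate 6, at 34.0 FPKM. In blood these were Fos in Immo+FC replicate 5, at 157 FPKM, and Fosb in the same library, at 2.64 FPKM. Egr2 in blood FC replicate 1 was far above the others at 1.08 FPKM, and Arc in the same library was far below them at 0.0442 FPKM. Arc was also far below the others in blood HC replicate 2, at 0.454 FPKM.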

How the results depend on the processing

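With 0 members past the threshold in each comparison of the main fit, the counts for amygdala FC against HC were 2 with array weights (Fosb and Fosl2, with 500 genes called in all), 1 with the replicate block (Fosl2, 160 genes) and 1 without HC replicates 1 and 2 (Fosl2, 357 genes), against 2 genes called in the main fit. In the setting without HC replicates 1 and 2, group and long transcript score cannot be told apart. With the long transcript score or the striatal marker score as a covariate, the count for amygdala FC against HC was 0. With 1 library left out the counts ran from 0 to 1 (Fosl2) in amygdala FC against HC and from 0 to 1 (Fosl2, without HC replicate 3) in Immo+FC against HC. No pairing is stated for the title numbers, and deviations of libraries with the same number correlated by -0.26 to 0.31 in amygdala and -0.25 to 0.21 in blood, so the block adds only an order. Co-variation fell from 19 pairs to 8 without HC replicates 1 and 2.

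Of 1575 values of single genes under alternatives, 16 turned sign by 1 SE or more in either fit, 70 turned by less and 0 of the 16 came from leaving out 1 library. In amygdala the log2 fold change of Fos without HC replicates 1 and 2 was -0.27 in FC against HC and -0.12 in Immo+FC against HC, and that of Npas4 in FC against HC was 0.43 with the long transcript score. In blood with neutrophil and lymphocyte scores, FC against HC gave -3.64 for Fos, -1.43 for Egr1 and -1.37 for Egr2. With the same scores, Immo+FC against FC gave 0.18 for Fos, 0.57 for Fosb, 0.40 for Egr1 and 0.43 for Egr3, and Immo+FC against HC gave -1.37 for Junb and -0.95 for Egr2. With the neuron score, Fos was -1.17 in FC against HC and Junb -0.55 in Immo+FC against HC. Junb in the latter was -0.36 with array weights and -0.52 without HC replicates 3 and 4, a setting added after the data were seen. The cause was not tested. The planned adjustment of exact permutation p-values over the members alone was not run. FPKM without counts leave the depth behind low values, such as Egr2, Arc and Npas4 in blood, unknown.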
